A study of Mus musculus with 6 samples.

Results

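Lipid-associated macrophage genes were followed in white fat from high-fat-fed mice, with or without tetrahydroberberrubine (THBru), a small molecule related to the plant alkaloid berberine. The 10 genes are Trem2, Tyrobp, Cd9, Lgals3, Gpnmb, Spp1, Cd63, Ctss, Itgax and Mmp12. They were taken by symbol from the deposited table, where each has 1 row, and make up 10 of its 32759 genes. The THBru group holds 3 samples from mice on the diet that received THBru at 50 mg/kg/day, and the HFD group holds 3 samples from mice on the diet without it. The diet is thus common to both groups, and the labels name no strain, genotype, sex, age, treatment length or fat depot. Separate animals are not stated, and p-values measure only the spread between these samples.

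Lipid-associated macrophages are the macrophages that gather around dying, lipid-filled fat cells in obese fat, where they take up and digest lipid. TREM2 is a cell surface receptor that binds lipids and lipoproteins, and it signals through the adaptor TYROBP (also called DAP12), which passes the signal to the kinase SYK. The other genes encode proteins of the lysosome and cell surface of these cells (GPNMB, CD63, CD9, the integrin chain CD11c from Itgax), a lectin (galectin-3 from Lgals3), proteases (cathepsin S, MMP12) and the secreted matrix protein osteopontin (Spp1). Several are made outside macrophages too: Cd9 and Cd63 are widely expressed tetraspanin genes, and Spp1 is also made by kidney tubules.

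The libraries held 67.2e6 to 72.1e6 counts in THBru and 69.3e6 to 77.0e6 counts in HFD. Levels are counts per 1e6 counts of the library (CPM), and 3 counts, the limit that a count of 0 allows, corresponded to 0.0390 to 0.0446 CPM. Each of the 10 genes lay above that limit in all 6 libraries. All 3 THBru libraries stood apart from the HFD libraries in transcripts of other organs. Summed seminal vesicle genes took 42.6% of counts in THBru 1, epididymal genes took 5.39% in THBru 3, and kidney tubule genes took 0.128% in THBru 2, against at most 0.0635%, 0.00699% and 0.00477% in any HFD library. The 12 mature adipocyte genes, which check the labelled tissue, took 0.326, 1.62 and 0.231% of counts in THBru 1 to 3, against 1.47, 2.36 and 2.30% in HFD 1 to 3. The part of these other tissues in the values below was not tested. In bulk tissue, fewer macrophages and less RNA per macrophage cannot be told apart.

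As whole genes in GRCm38 coordinates, Trem2 (ENSMUSG00000023992) lies on chromosome 17 at 48346401 to 48354147 and Gpnmb (ENSMUSG00000029816) on chromosome 6 at 49036546 to 49070929, both on the plus strand. Itgax (ENSMUSG00000030789) lies on chromosome 7 at 128129547 to 128150657 and Ctss (ENSMUSG00000038642) on chromosome 3 at 95526786 to 95556403, also on the plus strand. Lgals3 (ENSMUSG00000050335) spans 47367751 to 47386160 of chromosome 14, plus strand as well. Promoter windows are shown for these 5 because they are, of the 6 genes lower in every THBru library than in any HFD library, those with a RefSeq window. Each window runs from 250 bases before to 50 after the RefSeq start (build GRCm38.p6), with matches to the searched motifs in capitals. The windows are chr17:48346151-48346450 for Trem2, chr6:49036268-49036567 for Gpnmb, chr7:128129300-128129599 for Itgax, chr3:95526536-95526835 for Ctss and chr14:47373610-47373909 for Lgals3, which holds no match.
Trem2: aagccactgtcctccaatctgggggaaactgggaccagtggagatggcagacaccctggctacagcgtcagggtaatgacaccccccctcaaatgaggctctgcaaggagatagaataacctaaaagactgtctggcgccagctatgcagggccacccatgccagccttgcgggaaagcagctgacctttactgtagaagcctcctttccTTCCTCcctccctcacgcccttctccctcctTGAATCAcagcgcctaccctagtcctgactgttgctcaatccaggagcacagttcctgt
Gpnmb: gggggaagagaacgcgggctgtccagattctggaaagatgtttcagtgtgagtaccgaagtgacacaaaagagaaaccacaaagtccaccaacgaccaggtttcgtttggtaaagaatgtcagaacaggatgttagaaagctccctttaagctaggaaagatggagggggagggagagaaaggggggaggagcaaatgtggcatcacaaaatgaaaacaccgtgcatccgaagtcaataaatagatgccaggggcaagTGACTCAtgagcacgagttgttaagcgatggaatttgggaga
Itgax: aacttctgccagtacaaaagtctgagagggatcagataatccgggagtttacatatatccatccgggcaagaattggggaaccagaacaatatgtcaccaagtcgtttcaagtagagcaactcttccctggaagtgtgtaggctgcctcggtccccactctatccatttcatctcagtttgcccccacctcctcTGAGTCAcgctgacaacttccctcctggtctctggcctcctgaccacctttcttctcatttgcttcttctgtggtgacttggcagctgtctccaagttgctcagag
Ctss: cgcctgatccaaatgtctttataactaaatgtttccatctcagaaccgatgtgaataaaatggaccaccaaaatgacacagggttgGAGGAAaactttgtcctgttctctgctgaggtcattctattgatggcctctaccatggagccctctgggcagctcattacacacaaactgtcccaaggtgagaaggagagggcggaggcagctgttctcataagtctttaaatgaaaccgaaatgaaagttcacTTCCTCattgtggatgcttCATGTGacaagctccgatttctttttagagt
Lgals3: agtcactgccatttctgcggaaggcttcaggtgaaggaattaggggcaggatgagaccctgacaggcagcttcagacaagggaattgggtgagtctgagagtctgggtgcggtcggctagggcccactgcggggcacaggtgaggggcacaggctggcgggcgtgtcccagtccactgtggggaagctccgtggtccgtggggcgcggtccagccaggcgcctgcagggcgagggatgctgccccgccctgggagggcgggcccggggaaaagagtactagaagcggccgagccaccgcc
The motifs searched on both strands were GAGGAA (a core bound by the macrophage factor PU.1), TGANTCA (AP-1), CACGTG and CATGTG (E-boxes of the MITF and TFE factors). RefSeq windows were found for 9 of the 10 genes, 11 windows in all, since Spp1 and Mmp12 have 2 starts each. GAGGAA occurred in 5 of the 11 windows, 1 each of Trem2, Spp1, Cd63, Ctss and Mmp12, and in 28.3% of all 32851 windows. TGANTCA occurred in 4 of the 11 windows, 1 each of Trem2, Gpnmb, Itgax and Mmp12, and in 7.8% of all windows. CATGTG occurred in 3 of the 11 windows (Cd9, Ctss and Mmp12, against 14.2% of all windows) and CACGTG in 0 (7.2% of all windows). In the Trem2 window TGANTCA begins at position −9 and GAGGAA, on the opposite strand, at −40. In Gpnmb TGANTCA begins at position 9 after the start, and in Itgax at −56. No 2 of the 4 motifs overlap in the windows shown. A match describes letters and shows no binding.

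The receptor and its adaptor were both lower in every THBru library than in any HFD library. Trem2 stood at 3.79, 13.8 and 5.12 CPM in THBru 1 to 3, against 141, 19.8 and 58.1 CPM in HFD 1 to 3. The highest THBru library, THBru 2, thus came close to the lowest HFD library, HFD 2, without overlap. Tyrobp stood at 5.66, 13.7 and 3.42 CPM in THBru 1 to 3, against 65.7, 25.0 and 40.4 CPM in HFD 1 to 3. The log2 fold change, THBru over HFD, was −3.20 (SE 0.79) for Trem2 and −2.38 (SE 0.60) for Tyrobp, and neither passed (edgeR adjusted p = 0.162 for each). Counting error was small beside these differences: the 95% Wilson interval of Trem2 was 12.96 to 14.72 CPM in THBru 2 and 18.83 to 20.92 CPM in HFD 2.

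Gpnmb, Lgals3 and Ctss were also lower in every THBru library than in any HFD library. Gpnmb, which encodes a glycoprotein of lysosomes and the cell surface, stood at 23.5, 98.2 and 101 CPM in THBru 1 to 3, against 1561, 226 and 731 CPM in HFD 1 to 3. In THBru 3 it was not at the low end, unlike Trem2 and Tyrobp. Lgals3, the galectin-3 gene, stood at 21.0, 83.4 and 18.97 CPM in THBru 1 to 3, against 771, 240.4 and 419 CPM in HFD 1 to 3. Ctss, a lysosomal cysteine protease gene of antigen-presenting cells, stood at 54.2, 124 and 44.9 CPM in THBru 1 to 3, against 809, 250.1 and 390.0 CPM in HFD 1 to 3. THBru 2 was the highest THBru library for Lgals3 and Ctss. Log2 fold changes were −3.48 (SE 0.80; edgeR adjusted p = 0.159) for Gpnmb, −3.47 (SE 0.71; adjusted p = 0.137) for Lgals3 and −2.56 (SE 0.58; adjusted p = 0.159) for Ctss.

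Itgax, whose product CD11c is the integrin chain used to mark inflammatory adipose macrophages and dendritic cells, stood at 9.86, 11.3 and 4.02 CPM in THBru 1 to 3, against 164, 43.1 and 62.6 CPM in HFD 1 to 3. The groups did not overlap (log2 fold change −3.13, SE 0.75; edgeR adjusted p = 0.159). Mmp12, the macrophage elastase gene, had the widest spread of the 10 over the HFD libraries. It stood at 5.52, 29.2 and 5.16 CPM in THBru 1 to 3, against 419, 22.8 and 172 CPM in HFD 1 to 3. THBru 2 lay above HFD 2, so the groups overlapped (log2 fold change −3.91, SE 1.19; edgeR adjusted p = 0.181).

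Spp1, the osteopontin gene, did not share this order. It stood at 1.82, 83.9 and 4.79 CPM in THBru 1 to 3, against 57.6, 17.7 and 11.4 CPM in HFD 1 to 3. THBru 2 had the highest level of all 6 libraries, and THBru 1 and THBru 3 the lowest. The highest THBru library was 46.2-fold above the lowest one, and the log2 fold change was −0.06 (SE 1.34; edgeR adjusted p = 0.981). Without THBru 2 it was −2.91 (SE 0.85; edgeR adjusted p = 0.0860). The 11 kidney tubule genes summed to 2.30, 1275 and 109 CPM in THBru 1 to 3. In HFD 1 to 3 they summed to 9.55, 47.7 and 4.59 CPM. Lrp2, a gene of this list named after its values were seen, made up most of the sums in THBru 3 (98.9 CPM) and HFD 2 (44.8 CPM). Slc34a1, a proximal tubule phosphate transporter gene, stood at 360.3 CPM in THBru 2, 2.52 CPM in THBru 3 and at most 0.693 CPM in HFD. All 11 kidney genes were detected in THBru 2, and the part of kidney RNA in the Spp1 level was not tested.

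The tetraspanin genes did not share this order either. Cd9 stood at 205, 101 and 202 CPM in THBru 1 to 3, against 155, 104 and 99.8 CPM in HFD 1 to 3. In CPM, THBru 1 and THBru 3 lay above every HFD library and THBru 2 within the HFD range (log2 fold change 0.80, SE 0.51; edgeR adjusted p = 0.363). With the TMM scaling of the test, THBru 2 lay below that range, at 84.6 against 92.5 to 144 CPM. Cd63, a marker of lysosomes and exosomes, stood at 88.8, 213 and 317 CPM in THBru 1 to 3, against 307, 193 and 223 CPM in HFD 1 to 3. THBru 3 had the highest and THBru 1 the lowest Cd63 level of all 6 libraries (log2 fold change −0.17, SE 0.34; edgeR adjusted p = 0.779). Under TMM scaling THBru 3 was level with HFD 1, at 284.6 and 284.1 CPM. The 11 general epithelial genes summed to 1219, 481 and 2093 CPM in THBru 1 to 3, against 23.5, 107 and 7.91 CPM in HFD 1 to 3. These sums were higher in every THBru library than in any HFD library, though Krt19 (keratin 19), named after its values were seen, overlapped. Of the 11, 1 was called higher by edgeR at an adjusted p under 0.05, as were 0.118% of all genes. DESeq2 called 10 of the 11 higher, where it called 1670 of all 16140 genes higher. The part of epithelial transcripts in the Cd9 and Cd63 levels was not tested.

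**Figure D1:**
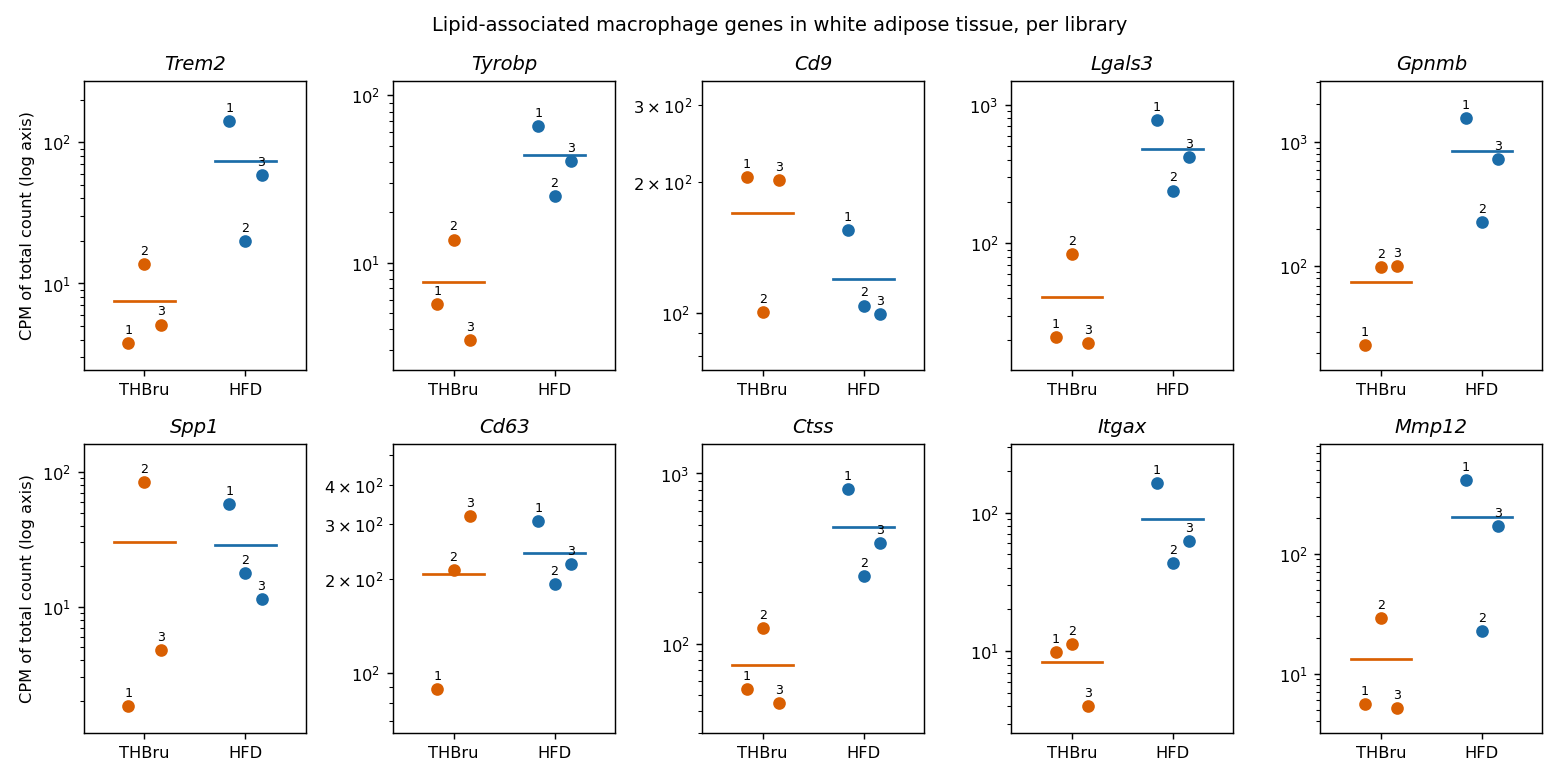
Levels of the 10 genes in counts per 1e6 counts of the library (CPM, log axis) for THBru (left, orange) and HFD (right, blue). Points are libraries with their replicate number and lines are group means; Trem2, Tyrobp, Lgals3, Gpnmb, Ctss and Itgax do not overlap between groups, while Mmp12, Spp1, Cd9 and Cd63 do.

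Over the 10 genes, 9 log2 fold changes were negative, against 45.6% of all 16140 genes tested, and all 10 passed the minimum level for the test. Their median was −2.84, where the median over all tested genes was 0.08. None of the 10 passed the edgeR quasi-likelihood test at an adjusted p under 0.05, a test in which 0.118% of all genes were called higher and 0% lower. At an unadjusted p under 0.05, 7 of the 10 were lower (8.93% of all genes), and DESeq2 called the same 7 lower (6.83% of all genes), with adjusted p-values of 5.9e-06 for Lgals3 to 0.00187 for Mmp12. Limma on log2(FPKM + 0.5) called 0 of the 10, where it called 72 of all 16140 genes higher and 1 lower. In 6 of the 10 the groups did not overlap, with THBru lower, as they did for 12.6% of all genes tested. The call changed with 1 library: without THBru 2, Lgals3 passed (log2 fold change −4.15, SE 0.70; edgeR adjusted p = 0.0384), 1 of the 10 where 4.55% of all genes were called lower.

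THBru 2 held the largest share of adipocyte transcripts of the THBru libraries, and its values were compared alone with the 3 HFD libraries, assuming that it varies as they do. There the log2 fold change was −2.53 (SE 1.20) for Trem2, −1.80 (SE 0.59) for Tyrobp, −3.22 (SE 1.25) for Gpnmb, −2.65 (SE 0.77) for Lgals3, −2.09 (SE 0.77) for Ctss, −3.12 (SE 0.94) for Itgax and −2.93 (SE 1.71) for Mmp12. None of the 10 passed there, with edgeR adjusted p-values from 0.243 to 0.712. Cd9 and Cd63 stood at −0.39 and −0.32 and Spp1 at 1.41.

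The HFD libraries differed among themselves along the same genes. HFD 1 was the highest HFD library for 10 of the 10 genes (39.6% of all genes tested) and HFD 2 the lowest for 8 (42.8%). The highest HFD level was 18.4-fold above the lowest for Mmp12, 7.13-fold for Trem2 and 6.91-fold for Gpnmb, but 2.62-fold for Tyrobp and 1.56-fold for Cd9. Summed over the 10 genes, levels were 419, 772 and 708 CPM in THBru 1 to 3, against 4450 CPM in HFD 1, 1142 CPM in HFD 2 and 2208 CPM in HFD 3. Gpnmb alone made up 5.61, 12.7 and 14.3% of that sum in THBru 1 to 3, against 35.1, 19.8 and 33.1% in HFD 1 to 3. Cd9 and Cd63 together made up 70.1, 40.7 and 73.5% in THBru, against 10.4, 26.0 and 14.6% in HFD. Per length, in the authors' FPKM, Cd9 had the highest mean of the 10 in THBru (80.0 ± 27.8 FPKM) and Ctss in HFD (345 ± 208 FPKM; SD, n = 3 each). Trem2 had the lowest mean in both groups, 1.48 ± 1.07 FPKM in THBru and 14.3 ± 12.2 FPKM in HFD.

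**Figure D2:**
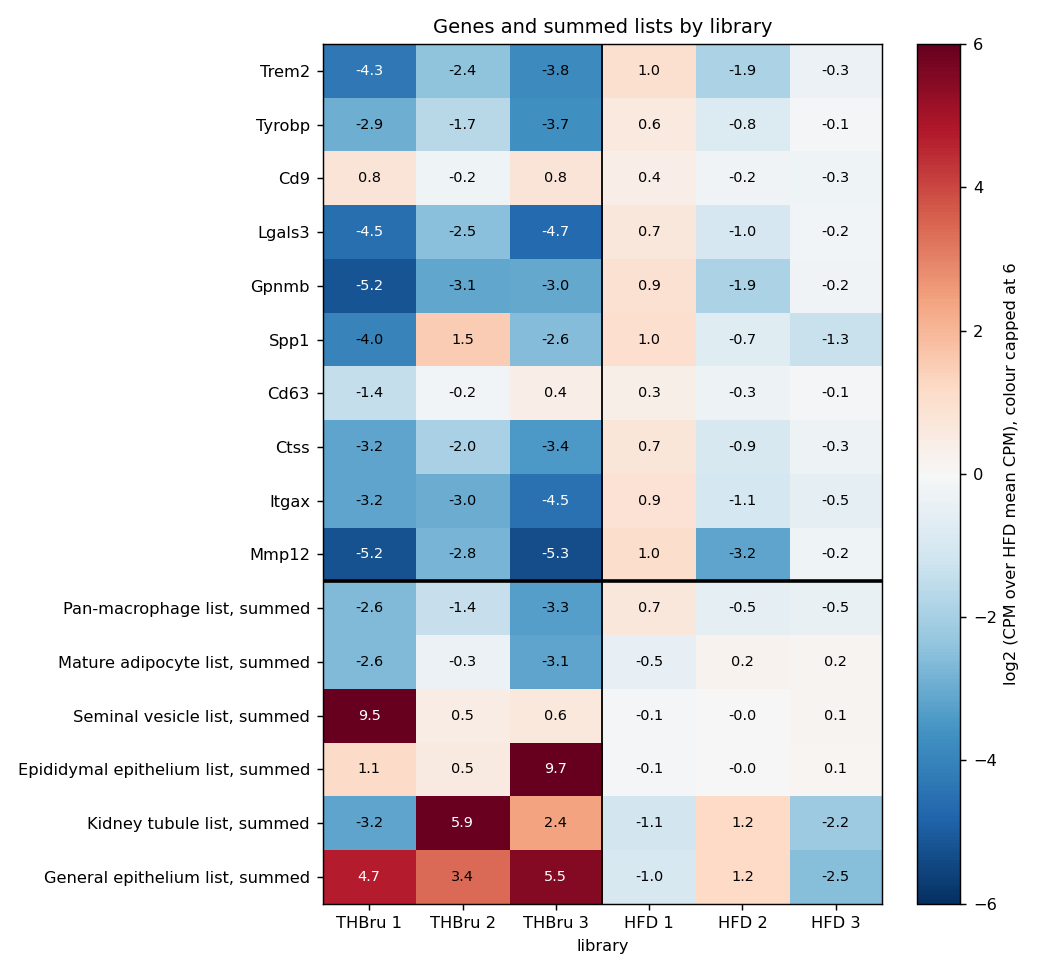
Log2 ratio of each library's CPM to the HFD mean for the 10 genes (above the line) and for summed marker lists (below), THBru libraries left and HFD libraries right; colour is capped at 6. Spp1 is positive in THBru 2, Cd9 in THBru 1 and THBru 3 and Cd63 in THBru 3. Trem2, Tyrobp, Lgals3, Gpnmb, Ctss, Itgax and Mmp12 are negative in every THBru library, as are the summed pan-macrophage and mature adipocyte lists.

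Macrophage genes in general also stood lower, so the 10 genes were set against them. Summed over 19 pan-macrophage genes, levels were 684, 1658 and 428 CPM in THBru 1 to 3, against 6742, 2963 and 3080 CPM in HFD 1 to 3. Of the 19, 0 passed in edgeR, 18 had negative log2 fold changes (median −2.14) and 14 were lower at an unadjusted p under 0.05 (8.93% of all genes). DESeq2 called 13 lower (6.83% of all genes) and 1 higher, where it called 1670 of all 16140 genes higher. The 2 most abundant were Lyz2, the lysozyme gene (log2 fold change −2.30, SE 0.71; edgeR adjusted p = 0.183), and C1qb, a complement chain gene (−2.14, SE 0.66; adjusted p = 0.182). Cx3cr1, a chemokine receptor gene named here after its values were seen, was the higher one, at 9.35, 6.13 and 19.9 CPM in THBru 1 to 3, against 4.17, 0.953 and 2.00 CPM in HFD 1 to 3.

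Per 100 counts of these 19 genes in the same library, Lgals3, Tyrobp and Itgax stayed lower without overlap, Trem2, Gpnmb and Ctss came to overlap, and Cd9 and Cd63 stood apart in the other direction. Lgals3 had 3.08, 5.03 and 4.44 counts in THBru 1 to 3, against 11.4, 8.11 and 13.6 in HFD 1 to 3, with no overlap. Tyrobp had 0.828, 0.828 and 0.801 counts in THBru, against 0.974, 0.845 and 1.31 in HFD, where the gap between the groups was narrow. Itgax had 1.44, 0.684 and 0.940 counts in THBru, against 2.43, 1.46 and 2.03 in HFD, again with a narrow gap. Trem2 overlapped, with 0.554, 0.833 and 1.20 counts in THBru against 2.098, 0.670 and 1.89 in HFD, as did Gpnmb, Ctss, Mmp12 and Spp1. Gpnmb reached 23.7 counts in THBru 3, level with 23.1 and 23.7 in HFD 1 and HFD 3. Cd9 (6.08 to 47.3 in THBru, 2.30 to 3.51 in HFD) and Cd63 (12.9 to 74.3 in THBru, 4.55 to 7.24 in HFD) were higher in every THBru library. So 3 of the 10 were lower without overlap and 2 higher, where 0.26% and 77.6% of all genes were. These shares are over all genes, most of which rise on this scale. The share over other macrophage genes was not computed. The makeup of the list differed between libraries. Sirpa, a list gene named after its values were seen, stood at 121 CPM in THBru 1 and 119 CPM in HFD 2. The whole list summed to 684 and 2963 CPM there. Whether the narrow gaps of Tyrobp and Itgax remain without such genes was not tested.

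With edgeR scaled to the same list, the median log2 fold change of the 10 was −0.54, while that of all genes was 2.38. Mmp12 stood at −1.74 (SE 0.86, edgeR adjusted p = 0.0615) and Lgals3 at −1.40 (SE 0.86, adjusted p = 0.129). Trem2, Tyrobp, Gpnmb, Ctss and Itgax stood at −0.95 to −0.35 (SE 0.85 to 0.87, edgeR adjusted p from 0.30 to 0.71). Cd9 (3.20; adjusted p = 0.0038) and Cd63 (2.45; adjusted p = 0.0178) were called higher, as were 67.4% of all genes. Scaled to the mature adipocyte list instead, Mmp12 was called lower (−2.69, SE 0.99; adjusted p = 0.0246), 1 of the 10 where 0.155% of all genes were, and Cd9 higher (3.02; adjusted p = 0.0188), where 49.3% were.

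**Figure D3:**
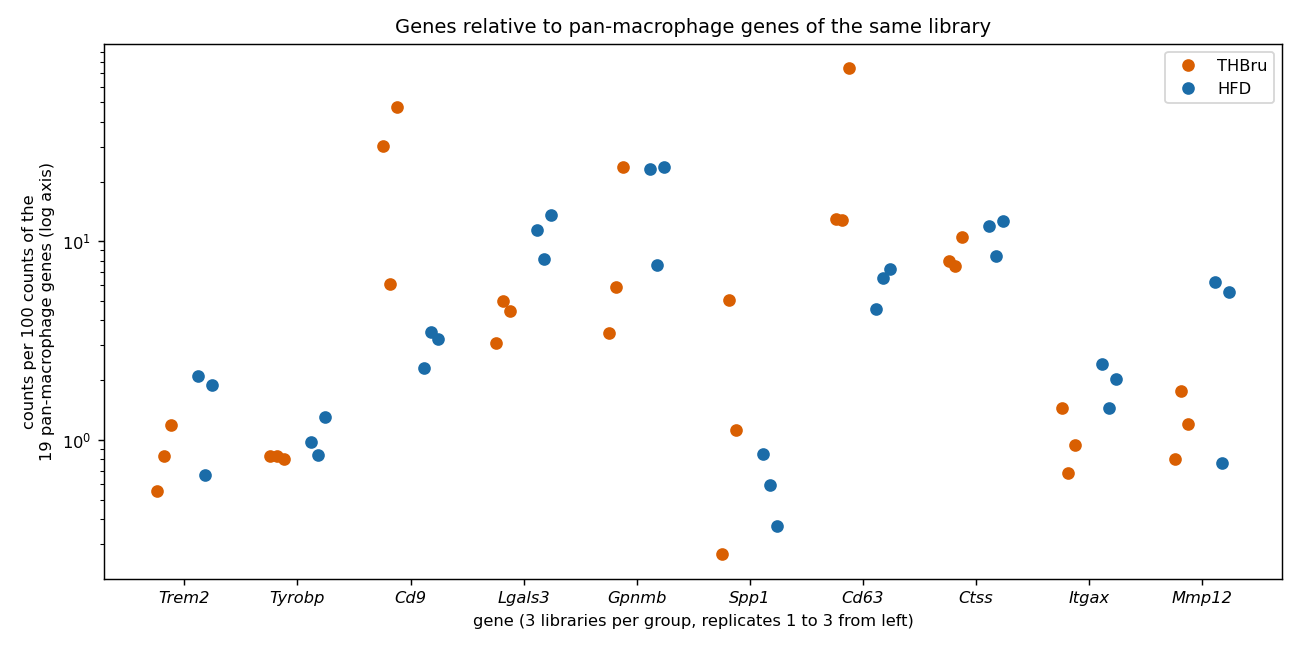
Counts of each gene per 100 counts of 19 pan-macrophage genes in the same library (log axis), THBru left (orange) and HFD right (blue) at each gene, replicates 1 to 3 from left. Lgals3 is lower and Cd9 and Cd63 are higher in every THBru library, while Trem2, Gpnmb, Ctss, Mmp12 and Spp1 overlap.

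Other genes of the pathway showed mostly negative fold changes, and none passed the edgeR test over all genes. Of 12 tested genes downstream of or around TREM2, 10 were negative (median −0.93). Of these 12, 5 were lower at an unadjusted p under 0.05 (8.93% of all genes) and DESeq2 called 4 lower (6.83% of all genes). The most abundant of them, the adaptor gene Grb2 (log2 fold change −0.54, SE 0.25; edgeR adjusted p = 0.254) and Adam10, a protease gene whose product sheds TREM2 (0.21, SE 0.34; adjusted p = 0.720), had small differences. Of 20 lysosomal lipid handling genes, 18 were negative (median −1.37). In this list 13 were lower at an unadjusted p under 0.05 (8.93% of all genes) and DESeq2 called 11 lower (6.83% of all genes). Its most abundant genes were Psap, the precursor gene of saposins, at 812, 2176 and 1345 CPM in THBru 1 to 3, against 6609, 2711 and 4152 CPM in HFD 1 to 3 (−1.55, SE 0.49; adjusted p = 0.183), and Ctsd, the cathepsin D gene, at 535, 1108 and 728 CPM in THBru against 3927, 2011 and 2517 CPM in HFD (−1.71, SE 0.41; adjusted p = 0.159). Neither overlapped between the groups.

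Of 12 lipid uptake and efflux genes, 11 were negative (median −1.44). Of these 12, 4 were lower at an unadjusted p under 0.05 (8.93% of all genes) and DESeq2 called 4 lower (6.83% of all genes). The most abundant, Apoe (apolipoprotein E; −1.12, SE 0.61; edgeR adjusted p = 0.299) and Cd36 (a fatty acid and scavenger receptor; −1.51, SE 0.99; adjusted p = 0.377), are also expressed in fat cells. Of 10 partners of osteopontin and CD11c, 9 were negative (median −1.01). Among them 5 were lower at an unadjusted p under 0.05 (8.93% of all genes) and DESeq2 called 4 lower (6.83% of all genes). Itgb2, which encodes the integrin chain that pairs with CD11c, stood at 29.4, 72.8 and 16.0 CPM in THBru 1 to 3, against 459, 131 and 199.8 CPM in HFD 1 to 3 (−2.60, SE 0.71; edgeR adjusted p = 0.173). Itgb1, an integrin chain gene expressed in most cells, was at −0.90 (SE 0.28; adjusted p = 0.181).

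Markers of other leukocytes that share some of the 10 genes also had mostly negative log2 fold changes. The 8 resident adipose macrophage genes all had negative values (median −1.63; Mrc1 −2.02, Cd163 −1.68), and 1 was lower at an unadjusted p under 0.05 (8.93% of all genes). All 7 tested dendritic cell genes were negative (median −0.98; Clec10a −1.72, Irf8 −0.98), with 0 at an unadjusted p under 0.05 and 0 in DESeq2. Of 6 monocyte genes, 5 were negative (median −1.38; Chil3 −2.94), while Plac8 stood at 3.06. Chil3 was uneven in HFD, at 11.5, 53.1 and 2.28 CPM in HFD 1 to 3. All 7 tested neutrophil genes were negative (median −2.93; S100a9 −1.95, Mmp9 −0.70), but 0 were lower in every THBru library than in any HFD library (12.6% of all genes). S100a9 peaked in HFD 2, at 1.74, 8.08 and 0.959 CPM in HFD 1 to 3, against 0.250, 2.60 and 0.104 CPM in THBru 1 to 3. Mmp9 was highest in THBru 2, at 28.1 CPM. Of 6 tested lymphocyte genes, 4 were negative (median −0.23; Trac −0.20). Klrb1c, a natural killer cell receptor gene, stood at 4.90 through 1 library, with 0.846, 2.40 and 219 CPM in THBru 1 to 3, against 2.87, 1.99 and 2.22 CPM in HFD 1 to 3. EdgeR called 0 genes of these lists in either direction at an adjusted p under 0.05. Adipose progenitor and fibroblast genes stood at a median of −1.64 (Dcn −1.04, Col3a1 −2.31) and mature adipocyte genes at −1.48 (Cidec −1.86, Cfd −0.23), so the negative sign was not limited to macrophage lists.

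The genes whose profile over the 6 libraries came closest to the mean profile of the 10 were Apobec1, Qpct, Arl11, P2ry6, Dgat2 and Daglb. Likeness was the root mean square difference of log2(CPM + 0.5) centred on each gene's own mean, 0.12 for Apobec1 and 0.16 to 0.19 for the others. Among the 10, Ctss (0.26), Tyrobp (0.35) and Trem2 (0.43) lay closest to their common mean, and Cd9 (1.66), Spp1 (1.29) and Cd63 (1.18) farthest from it. Apobec1, an RNA-editing deaminase gene, stood at 13.5, 44.2 and 15.1 CPM in THBru 1 to 3, against 182, 58.3 and 92.0 CPM in HFD 1 to 3 (log2 fold change −2.11, SE 0.56; edgeR adjusted p = 0.168). These 6 genes were picked for their pattern, so their values carry no test of it, and all libraries contribute to each point of likeness, including those with other tissue in them.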

How the data were processed

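Gene expression was measured by RNA sequencing in 3 THBru and 3 HFD samples of white adipose tissue. Per the labels' protocols, libraries were made from poly(A) RNA with dUTP in the second strand and sequenced as paired reads. The deposited table holds raw counts per gene and FPKM values calculated by the authors, both named per the file headers. The submitters' processing notes list HISAT2 2.2.1, cutadapt 1.9 and StringTie 2.1.6, beside edgeR and DESeq2, and give none of them a role. Counting program, strand setting and genome build were not given in the sources used here. GENCODE M21 (GRCm38) holds 99.7% of the identifiers, 87.5% of these at the same coordinates. Counts include any reads shared with overlapping genes: Mmp1b overlaps the end of Mmp12 on the opposite strand, and small annotated genes overlapping Spp1, Cd9 and Ctss had 0 to 105 counts per library.

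Rows sharing a symbol were summed (32819 rows, 32759 genes). THBru was compared with HFD by two-sided edgeR 4.0.16 quasi-likelihood tests (robust, TMM scaling of total counts; R 4.3.3) on the 16140 genes whose mean FPKM reached 0.5, with Benjamini-Hochberg adjustment over all of them and a threshold of 0.05. CPM in the text uses total counts without TMM. On simulated counts of the THBru and HFD comparison (16140 genes, 200 of them shifted by log2 2) the fit recovered 100% of them at a dispersion of 0.05 and 6.5% at 0.3. Apart from the shifted genes, the simulated libraries shared the same composition, unlike the libraries here. Which dispersion is nearer these data was not tested. Alternatives were DESeq2 1.42.0, limma 3.58.1 on log2(FPKM + pseudocount), other scalings and filters, a replicate block and leaving out libraries. Wilson intervals and limits for 0 counts reflect counting error alone. Every pair of libraries differed beyond sampling noise (chi-square per gene at least 220.5).

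The 10 genes, the other lists and the alternatives were chosen with earlier results of these data known. Named genes are the 10, the 2 of each other list with the highest mean FPKM, and the 6 most alike in profile. Lists of seminal vesicle, epididymis, kidney and epithelium are given as sums, with single genes of them named only where needed.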

Additional observations from a re-analysis of the deposited data

How the results depend on the processing

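Of the 10 genes, 0 were called in edgeR, while DESeq2 called 7 lower (6.83% of all genes). Scaling to mature adipocyte genes called 1 lower (Mmp12) and 1 higher (Cd9), where 0.155% and 49.3% of all genes were. With scaling to pan-macrophage genes 2 were called higher (Cd9 and Cd63), as were 67.4% of all genes. With a library left out 0 to 1 were called, the 1 being Lgals3, lower without THBru 2 (4.55% of all genes). Their median log2 fold change, −2.84, moved to −1.145 with adipocyte scaling and −0.54 with pan-macrophage scaling, where the median of all genes was 2.27 and 2.38, and it ranged from −3.14 to −2.145 with a library left out, the weakest without HFD 1. Trem2, Tyrobp, Lgals3, Gpnmb, Ctss, Itgax and Mmp12 kept a negative sign under each alternative run. Under pan-macrophage scaling, though, Trem2, Tyrobp, Gpnmb and Ctss lay within 1 SE of 0. Spp1 turned positive with total counts (0.063), adipocyte scaling (0.60), pan-macrophage scaling (1.83) and THBru 2 alone (1.41), and spanned −2.91 to 0.895 with a library left out. Cd63 turned positive with adipocyte (2.196) and pan-macrophage scaling (2.45) and spanned −0.504 to 0.026 with a library left out. Cd9 turned negative with THBru 2 alone (−0.393). Over all genes, the 19 calls became 2773 with DESeq2, 53 with total counts, 7986 and 10894 with adipocyte and pan-macrophage scaling, 356 with THBru 2 alone, 73, 118 and 56 in limma with pseudocounts of 0.5, 0.1 and 1, and between 0 (on leaving out HFD 1, HFD 2 or HFD 3) and 1552 (THBru 2) on leaving out single libraries. The cause was not tested.

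The replicate numbers only name the samples: deviations of same-numbered samples correlated at 0.048, −0.009 and −0.062 across genes. With the replicate block 0 genes were called, none of the 10 among them, and their median was −2.76.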

Other observations

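Ratios between the 10 genes within a library need no scaling, and they are given as values only. Trem2 counts per Tyrobp count were 0.669, 1.005 and 1.496 in THBru 1 to 3, against 2.15, 0.792 and 1.44 in HFD 1 to 3. These ranges overlapped, and the ratio varied widely within each group. Lgals3 counts per Ctss count were 0.388, 0.671 and 0.422 in THBru 1 to 3, against 0.953, 0.961 and 1.075 in HFD 1 to 3, so these ranges did not overlap and the HFD values lay close together. Mmp12 per Ctss was 0.102, 0.235 and 0.115 in THBru 1 to 3, against 0.518, 0.0912 and 0.442 in HFD 1 to 3, with HFD 2 at the lowest ratio of all libraries. Gpnmb per Ctss was 0.434, 0.789 and 2.26 in THBru 1 to 3, against 1.93, 0.902 and 1.88 in HFD 1 to 3, with THBru 3, the library of epididymal transcripts, at the highest ratio. These pairs were chosen after the values were seen and were not tested.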
